A study of Mus musculus with 12 samples.

Results

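The genes described here are 9 mouse genes of the R-spondin and LGR axis, namely Rspo1, Rspo3, Lgr4, Lgr5, Lgr6, Znrf3, Rnf43, Axin2 and Procr, which were chosen by name and whose Entrez identifiers were looked up among the 27179 genes of the deposited count table. All 9 were found, and 8 of them had enough counts for a test. The counts come from RNA sequencing of basal and luminal mammary epithelial cells sorted by flow cytometry. Groups were basal virgin, basal pregnant (day 18.5), basal lactating (day 2), luminal virgin, luminal pregnant (day 18.5) and luminal lactating (day 2), with 2 libraries in each group and 12 in all. Every animal was a wild type FVB/N female without treatment, and the design text gives 2 mice per stage. Neither the surface markers of the sort nor the ages of the mice were stated by the submitters' labels. Because only 2 libraries stand for a group, the spread of any single group is poorly known, and where the labels do not tie a library to a mouse the p-values measure the spread between these libraries.

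R-spondins are secreted proteins that bind the receptors LGR4, LGR5 and LGR6. The bound complex captures ZNRF3 and RNF43, a pair of membrane ubiquitin ligases that remove Frizzled receptors from the cell surface, so that a cell with R-spondin keeps more Frizzled and responds more strongly to WNT. AXIN2 is a scaffold of the complex that degrades beta-catenin and is itself a widely used target gene of WNT signalling, while PROCR, the endothelial protein C receptor, has been reported to mark multipotent stem cells in the basal layer of the mouse mammary gland and has been described as a WNT target there.

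The 250 bases before an annotated transcript start are shown for the 4 genes whose levels the following results turn on most and for which RefSeq (GRCm38.p6) gave a start, in lower case on the strand of the gene. They lie at chr4:124986180-124986429 (plus strand) for Rspo1, chr2:109917397-109917646 (plus strand) for Lgr4, chr1:135105277-135105526 (minus strand) for Lgr6 and chr11:108920099-108920348 (plus strand) for Axin2. The Axin2 stretch lies inside the annotated gene, which starts at chr11:108917828. The stretches of Rspo1 and Lgr6 overlap their genes in part, which begin at chr4:124986401 and chr1:135105374. For these genes the annotation thus reaches farther upstream than the start used.
Rspo1: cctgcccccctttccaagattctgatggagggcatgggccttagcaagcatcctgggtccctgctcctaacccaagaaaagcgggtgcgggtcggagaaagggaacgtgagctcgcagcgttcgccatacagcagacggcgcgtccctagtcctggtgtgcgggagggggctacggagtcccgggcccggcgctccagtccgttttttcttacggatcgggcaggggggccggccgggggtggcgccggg
Lgr4: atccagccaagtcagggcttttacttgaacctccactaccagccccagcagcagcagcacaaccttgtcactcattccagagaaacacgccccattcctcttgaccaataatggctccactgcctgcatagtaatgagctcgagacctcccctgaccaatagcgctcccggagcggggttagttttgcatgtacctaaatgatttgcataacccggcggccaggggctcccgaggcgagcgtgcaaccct
Lgr6: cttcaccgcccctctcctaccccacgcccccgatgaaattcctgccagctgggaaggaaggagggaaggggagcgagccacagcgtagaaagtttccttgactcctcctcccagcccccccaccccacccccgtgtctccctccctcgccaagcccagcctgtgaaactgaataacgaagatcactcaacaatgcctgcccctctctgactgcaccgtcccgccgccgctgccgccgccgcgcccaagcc
Axin2: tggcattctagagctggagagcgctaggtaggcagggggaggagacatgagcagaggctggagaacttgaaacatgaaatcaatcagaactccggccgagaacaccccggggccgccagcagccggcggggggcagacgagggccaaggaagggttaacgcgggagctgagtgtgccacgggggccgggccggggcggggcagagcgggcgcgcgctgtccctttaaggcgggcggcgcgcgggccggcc
With the 50 bases after the start, the 300-base windows held 69% G and C at Rspo1, 58.3% at Lgr4, 67.7% at Lgr6 and 70.0% at Axin2, against a median of 52.7% over all 32851 windows in the table. The Axin2 window contained 31 CpG dinucleotides and the Rspo1 window contained 29. A search on both strands for 4 TCF/LEF-type motifs, namely the letters CTTTGAA as well as the variant CTTTGAT with the variant CTTTGTA and also the variant CTTTGTT, found 0 matches in the 7 windows of the 6 genes with an entry (Rspo1, Lgr4, Lgr6, Rnf43, Axin2 and Procr), and 16.9% of all windows held at least 1. No letters are therefore in capitals, and the absence of these letters from a 300-base window says nothing of binding elsewhere.

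Each library held between 20.02 M and 24.72 M counts (M, 1e6), and 16701 to 18533 genes had at least 1 count. The 8 basal markers summed to 14610 to 49950 CPM (counts per 1e6, scaled by TMM) in basal libraries, against 56.5 to 397 CPM in luminal libraries. The 8 luminal markers summed to 1421 to 2258 CPM in basal libraries, against 5081 to 11750 CPM in luminal libraries, and no library went against its label. All basal libraries carry the run name of lane 2 and all luminal libraries that of lane 1, so that cell type and lane cannot be told apart. Alveolar marker genes, mostly caseins and other milk proteins, summed to 480900 and 454900 CPM in the luminal lactating libraries, against 74450 and 98670 CPM in luminal pregnant ones. Scaling by library size alone, without TMM, shifted the all-gene median (log2 change) by -0.85 for luminal lactating against pregnant, by -1.36 for luminal lactating against virgin and by 0.99 for basal against luminal in lactating mice, so that levels in luminal lactating libraries depend most on the scaling. In bulk libraries of sorted cells, fewer cells of a type and less RNA per cell cannot be told apart.

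Rspo1 (Entrez 192199, chr4:124986401-125009102, plus strand) encodes R-spondin 1 and was the single member higher in luminal than in basal cells. Its basal libraries held 2.33 and 1.63 CPM in virgin, 28.0 and 14.1 CPM in pregnant and 6.77 and 6.30 CPM in lactating mice. In luminal libraries the level was 90.6 and 64.2 CPM in virgin, 403 and 274 CPM in pregnant and 3.82 and 3.56 CPM in lactating mice. Both cell types were highest in pregnancy, and the groups of the 3 stages did not overlap in either cell type. Luminal Rspo1 averaged 338 ± 91.1 CPM in pregnant and 77.4 ± 18.7 CPM in virgin mice (SD, n = 2 libraries each), a log2 change of 2.13 (SE 0.27, edgeR quasi-likelihood test, adjusted p = 3.73e-05). At day 2 of lactation it averaged 3.69 ± 0.18 CPM, a log2 change from pregnancy of -6.52 (SE 0.36, edgeR adjusted p = 6.78e-08) and an estimated 91.5-fold lower level. This was the largest change of a tested member in the 6 comparisons between stages, and it left lactating luminal cells below virgin ones by 4.39 on the log2 scale (log2 change -4.39, SE 0.35, edgeR adjusted p = 3.02e-07).

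Basal Rspo1 rose in pregnancy by a log2 change of 3.41 (SE 0.35, edgeR adjusted p = 2.66e-05) and fell in lactation by a log2 change of -1.69 (SE 0.31, edgeR adjusted p = 0.00141), ending above virgin by 1.71 (SE 0.38, edgeR adjusted p = 0.00252). Basal libraries were lower than luminal ones by a log2 difference of -5.28 (SE 0.35, edgeR adjusted p = 4.34e-08) in virgin and of -4.00 (SE 0.29, edgeR adjusted p = 7.40e-08) in pregnant mice. In lactating mice the difference was 0.82 (SE 0.39, edgeR adjusted p = 0.0717), which did not pass the threshold of 0.05, although the basal and luminal libraries did not overlap. With the replicate number of each stage as a block the value was 0.82 with an edgeR adjusted p of 0.00108. Under scaling by library size alone it was 1.82 (edgeR adjusted p = 0.000764). It was 0.84 (edgeR adjusted p = 0.0210) with no low-count filter and 0.79 (adjusted p = 0.0225) by DESeq2. Of 20 alternative fits, 7 passed the threshold. Milk protein and other alveolar markers in the basal libraries, as a share of their luminal level, came to 2.04% and 2.73% in virgin mice, 2.94% and 2.17% in pregnant mice and 0.590% and 0.570% in lactating mice. When luminal counts at these shares were subtracted, an alternative chosen after seeing the data, basal Rspo1 stood at 0.765 and 0 CPM in virgin, 18.0 and 6.80 CPM in pregnant and 6.77 and 6.30 CPM in lactating mice. The pregnancy change of basal Rspo1 was then 4.96 (SE 0.67, edgeR adjusted p = 0.000245), and its lactation change was -0.96 (SE 0.45, edgeR adjusted p = 0.123), no longer past the threshold. The virgin values after subtraction rest on 22 and 0 counts. All values after subtraction depend on the alveolar list. The 8 luminal markers would give larger shares, with 1539 and 1587 CPM in basal pregnant and 8974 and 10650 CPM in luminal pregnant libraries. Subtraction at their shares was not run. Hormone-sensing luminal markers moved the other way from luminal Rspo1 in pregnancy: they summed to 234 and 198 CPM in pregnant and 2250 and 2181 CPM in virgin mice. Of these markers 7 of 8 were lower, beside 24.1% of all genes, and their part in the change of Rspo1 was not tested.

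**Figure D1:**
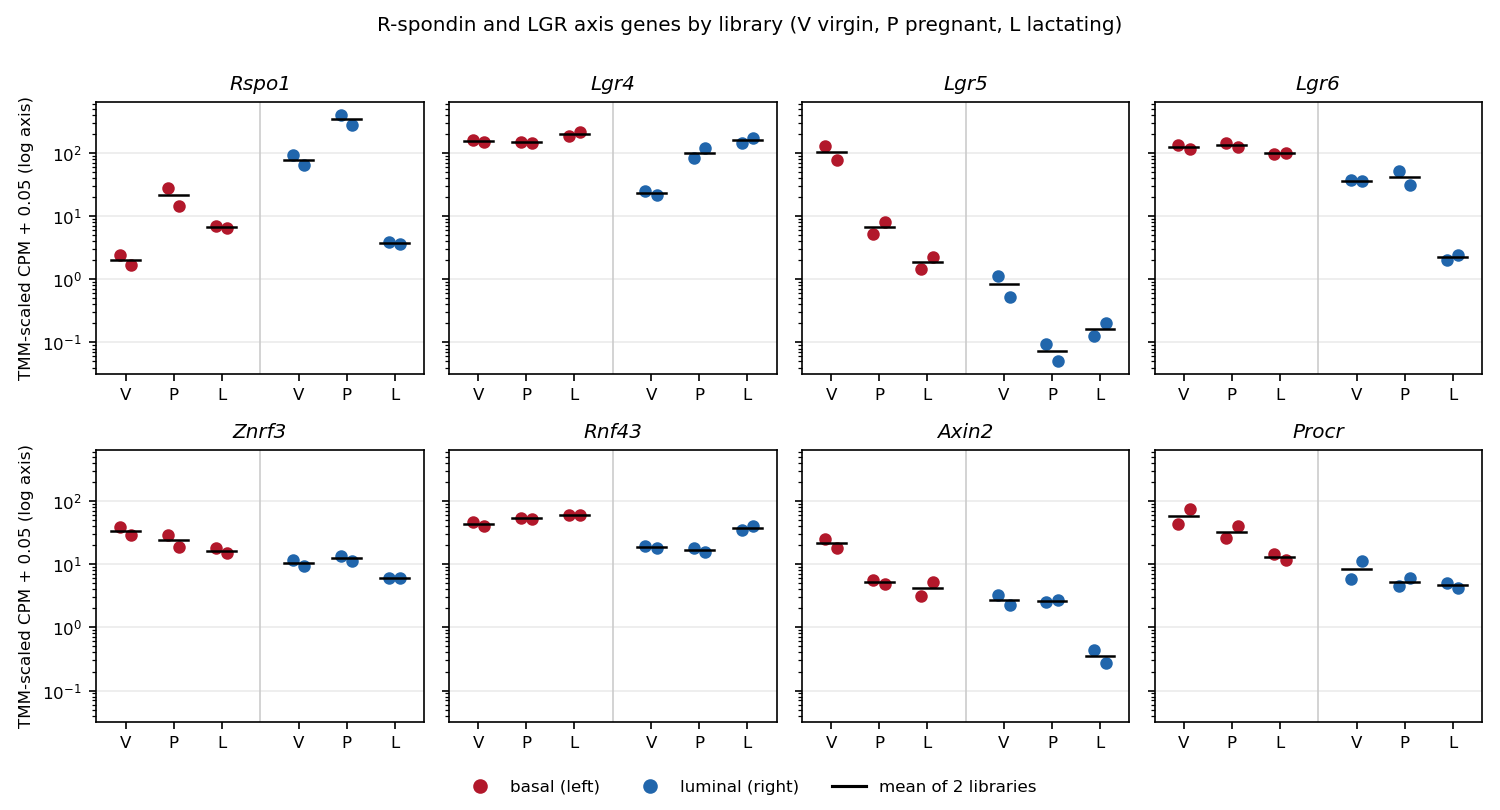
Level of the 8 tested genes in each library, as TMM-scaled CPM plus 0.05 on a log axis, with basal libraries in red on the left and luminal libraries in blue on the right of each panel, ordered virgin (V), pregnant (P) and lactating (L); the bar is the mean of 2 libraries. Luminal Rspo1 stands at 403 and 274 CPM in pregnancy and below 4 CPM in lactation, while Lgr5 falls with stage in basal cells and stays near 0 in luminal ones.

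Rspo3 (Entrez 72780, chr10:29453106-29535867, minus strand), a second R-spondin, was practically not counted. Over the 12 libraries it had 6 counts, with 0 in both basal pregnant and both luminal pregnant libraries. A count of 0 in a group allows up to 3 counts, or 0.0584 CPM in basal pregnant and 0.0704 CPM in luminal pregnant mice, a floor that covers counting error only, as do all counting intervals given here. No fold is given, since all 6 groups lay at or under that floor. Of the other R-spondins, Rspo4 had 18 and 13 counts in the luminal lactating libraries and 0 in both basal lactating ones, at least 17.3-fold higher in luminal cells when set against the floor of 3 counts over the group. Rspo4 was also higher in luminal lactating than in luminal pregnant libraries, which held 1 and 2 counts, with a log2 change of 3.96 (SE 0.71, edgeR adjusted p = 0.00127). Its highest level, 1.38 CPM, was still below the lowest luminal level of Rspo1.

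Lgr4 (Entrez 107515, chr2:109917647-110014257, plus strand) encodes the R-spondin receptor with the broadest expression among tissues. Basal libraries held 159 and 148.5 CPM in virgin, 149.7 and 143 CPM in pregnant and 182 and 209 CPM in lactating mice. Luminal libraries held 24.6 and 21.1 CPM in virgin, 81.6 and 119.9 CPM in pregnant and 143 and 173 CPM in lactating mice. The basal lactating libraries were the highest of the basal ones, and the luminal groups climbed with stage without overlapping, the lactating ones staying below both basal lactating libraries. Luminal Lgr4 was higher in pregnant than in virgin mice by a log2 change of 2.14 (SE 0.17, edgeR adjusted p = 8.95e-07), whereas the basal change was -0.07 (SE 0.16, edgeR adjusted p = 0.783). The basal lactation change was 0.42 (SE 0.16, edgeR adjusted p = 0.0661), and it passed the threshold in a fit of basal libraries alone (0.41, edgeR adjusted p = 0.0250), with no low-count filter (0.43, edgeR adjusted p = 0.0330) and without luminal pregnant library 1 or 2 (0.43 in both fits, edgeR adjusted p = 0.0215 and 0.0212). The difference between the basal and the luminal pregnancy change was -2.21 (SE 0.24, edgeR adjusted p = 2.42e-05). From pregnancy to lactation luminal Lgr4 changed by 0.65 (SE 0.16, edgeR adjusted p = 0.00575), but by -0.20 (edgeR adjusted p = 0.288) under scaling by library size alone, so that its direction at this step depends on the scaling. This step also missed the threshold without luminal pregnant library 1 (log2 change 0.41, edgeR adjusted p = 0.0561) and without luminal lactating library 2 (0.53, edgeR adjusted p = 0.0534). Basal cells stood above luminal cells by 2.75 (SE 0.18, edgeR adjusted p = 3.28e-08) in virgin mice and by 0.54 (SE 0.16, edgeR adjusted p = 0.0102) in pregnant mice. The pregnant difference was 0.28 (edgeR adjusted p = 0.135) without luminal pregnant library 1. In lactating mice the difference was 0.31 (SE 0.16, edgeR adjusted p = 0.105), and 0.31 with an edgeR adjusted p of 0.0397 when the replicate number of each stage was a block. Under scaling by library size alone it was 1.305 (edgeR adjusted p = 2.86e-06), so that its size depends on the scaling.

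Lgr5 (Entrez 14160, chr10:115450314-115587780, minus strand), known as a stem cell marker of the intestine and other epithelia, was a gene of virgin basal cells in these libraries. Basal libraries held 129 and 77.5 CPM in virgin, 5.09 and 8.12 CPM in pregnant and 1.39 and 2.21 CPM in lactating mice. The 3 basal stages did not overlap and lay far apart. Basal Lgr5 fell in pregnancy by a log2 change of -3.97 (SE 0.30, edgeR adjusted p = 2.70e-06), a 15.7-fold lower level, and again in lactation by -1.87 (SE 0.36, edgeR adjusted p = 0.00221). From virgin to lactating mice the basal change was -5.84 (SE 0.35, edgeR adjusted p = 2.93e-07), or 57.3-fold.

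Luminal libraries contained 30 and 14 counts of Lgr5 in virgin, 1 and 0 counts in pregnant and 1 and 2 counts in lactating mice. Virgin luminal cells were thus low, and the later stages were at the limit of counting. Basal virgin cells exceeded luminal virgin cells by 7.06 (log2, SE 0.38, edgeR adjusted p = 6.24e-09). In pregnant mice the ratio of basal to luminal was 278 with a 95% counting interval of 49.5 to 11010, from 335 counts against 1. In lactating mice it was 15.7 with an interval of 5.18 to 77.8, from 79 counts against 3. The luminal pregnant group lay below the luminal virgin group, 1 count against 44, and the level was 32.6-fold higher in virgin cells (95% counting interval 5.55 to 1316). The luminal difference between lactating and virgin mice (log2 change -2.69, SE 1.04, edgeR adjusted p = 0.0403) missed the threshold without luminal lactating library 1 (-2.27, edgeR adjusted p = 0.181), luminal lactating library 2 (-3.22, edgeR adjusted p = 0.114) or luminal virgin library 1 (-2.0, edgeR adjusted p = 0.173). Basal markers were also present in the luminal virgin libraries, at a sum of 56.5 and 83.5 CPM, and their part in the luminal Lgr5 counts was not tested.

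Lgr6 (Entrez 329252, chr1:134983300-135105374, minus strand), a receptor reported in subsets of mammary basal and luminal cells, kept a high basal level at every stage. Basal libraries held 131 and 117 CPM in virgin, 144 and 123 CPM in pregnant and 95.9 and 100.1 CPM in lactating mice, with the lactating pair below the others. No basal change passed the threshold in the fit of all libraries. The basal change from virgin to pregnant mice was 0.11 (SE 0.18, edgeR adjusted p = 0.684), and from pregnant to lactating mice it was -0.44 (SE 0.18, edgeR adjusted p = 0.0772). The lactation step passed in a fit of basal libraries alone (-0.45, edgeR adjusted p = 0.0185), with no low-count filter (-0.43, edgeR adjusted p = 0.0444) and without luminal pregnant library 1 or 2 (-0.44 in both fits, edgeR adjusted p = 0.00905 and 0.00911). The basal change from virgin to lactating mice was -0.33 (SE 0.18, edgeR adjusted p = 0.148). It passed in a fit of basal libraries alone (-0.36, edgeR adjusted p = 0.0335) and under library size scaling (-0.54, edgeR adjusted p = 0.0406). Luminal libraries held 37.0 and 35.2 CPM in virgin, 52.2 and 30.6 CPM in pregnant and 1.99 and 2.35 CPM in lactating mice. Virgin and pregnant luminal cells overlapped, and lactating ones were separate and far lower. Luminal Lgr6 fell in lactation by a log2 change of -4.25 (SE 0.27, edgeR adjusted p = 1.62e-07), 19.1-fold, and the change in basal cells exceeded it by 3.81 (SE 0.33, edgeR adjusted p = 5.97e-06). Basal cells therefore stood above luminal cells by 1.78 (SE 0.19, edgeR adjusted p = 3.67e-06) in virgin, 1.69 (SE 0.19, edgeR adjusted p = 4.01e-06) in pregnant and 5.50 (SE 0.26, edgeR adjusted p = 1.03e-09) in lactating mice.

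Per length, the receptors could be set side by side as RPKM (counts per kilobase of the deposited gene length and per 1e6 counts, TMM-scaled). Lgr4, Lgr5 and Lgr6 together summed to 94.8 and 78.0 RPKM in basal virgin, 70.3 and 64.0 RPKM in basal pregnant and 62.6 and 69.5 RPKM in basal lactating libraries. In luminal libraries the sum was 15.3 and 14.0 RPKM in virgin, 30.5 and 32.1 RPKM in pregnant and 28.8 and 34.9 RPKM in lactating mice. The shares of the receptors in these sums changed with stage. Lgr5 made up 28.8% and 21.1% of the basal receptor sum in virgin mice, 1.54% and 2.69% in pregnant mice and 0.471% and 0.674% in lactating mice. In luminal cells Lgr6 gave 66.7% and 69.5% of the sum in virgin mice, 47.2% and 26.3% in pregnant mice and 1.91% and 1.86% in lactating mice, and Lgr4 gave nearly all of the rest, reaching 98.0% in both lactating libraries. These shares are a description, with no test.

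**Figure D2:**
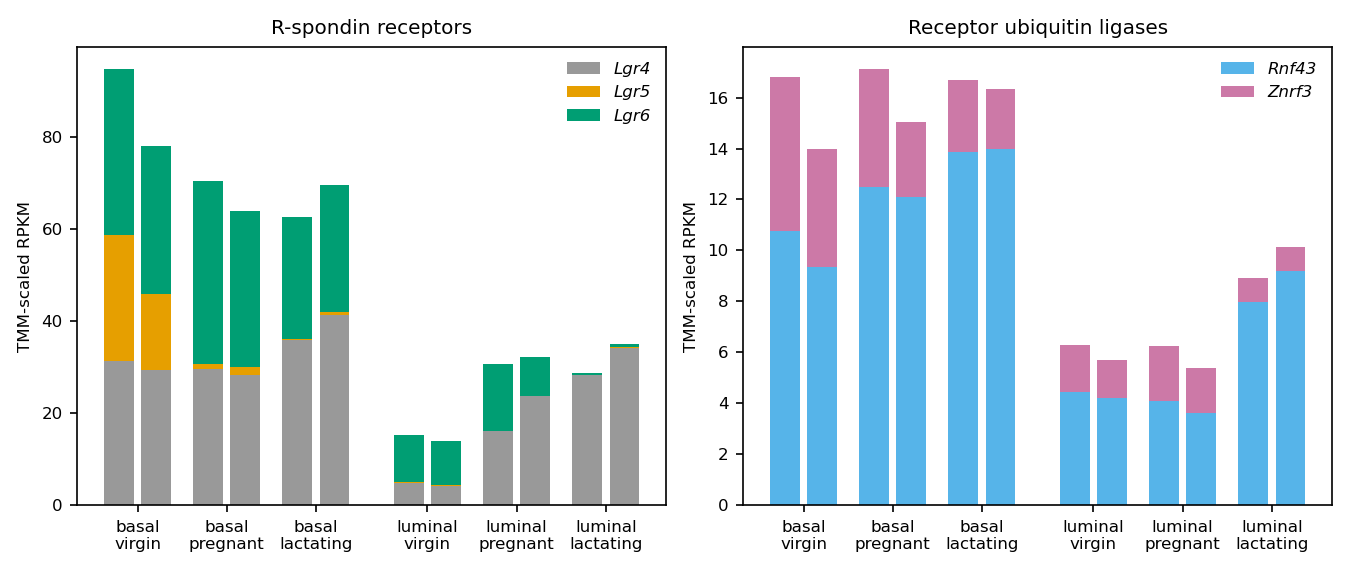
Stacked level of the R-spondin receptors (left) and of the paired ubiquitin ligases (right) in each library, as TMM-scaled RPKM, with 2 bars for each group and basal groups left of luminal ones. The Lgr5 part is visible in basal virgin libraries, at 28.8% and 21.1% of the receptor sum, and luminal lactating libraries hold Lgr4 at 98.0% of theirs.

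Znrf3 (Entrez 407821, chr11:5276329-5444847, minus strand) and Rnf43 (Entrez 207742, chr11:87663087-87735539, plus strand), which encode the ligases that R-spondins inhibit, were both higher in basal cells at every stage. Znrf3 stood at 38.2 and 29.4 CPM in basal virgin, 29.2 and 18.6 CPM in basal pregnant and 17.8 and 14.8 CPM in basal lactating libraries. Luminal Znrf3 stood at 11.5 and 9.35 CPM in virgin, 13.6 and 11.3 CPM in pregnant and 5.89 and 5.99 CPM in lactating mice. Lactating cells were lowest in both cell types. Neither single step passed the threshold in basal cells, at a log2 change of -0.50 (SE 0.20, edgeR adjusted p = 0.0808) in pregnancy and of -0.55 (SE 0.21, edgeR adjusted p = 0.0588) in lactation. Both steps passed with no low-count filter (-0.50, edgeR adjusted p = 0.0430, and -0.54, edgeR adjusted p = 0.0324). The pregnancy step also passed under library size scaling (-0.65, edgeR adjusted p = 0.0337). The first step passed without basal pregnant library 1 (-0.86, edgeR adjusted p = 0.0125) and the second without basal pregnant library 2 (-0.84, edgeR adjusted p = 0.00902). Over both steps, basal lactating libraries were below basal virgin ones by -1.05 (SE 0.21, edgeR adjusted p = 0.00124). Luminal Znrf3 fell in lactation by -1.07 (SE 0.24, edgeR adjusted p = 0.00303). The luminal difference between lactating and virgin mice, -0.81 (SE 0.24, edgeR adjusted p = 0.0118), missed the threshold without luminal virgin library 1 (-0.66, edgeR adjusted p = 0.0711), luminal lactating library 1 (-0.77, edgeR adjusted p = 0.0695) or luminal lactating library 2 (-0.80, edgeR adjusted p = 0.0622). Basal cells exceeded luminal cells by 1.70 (SE 0.21, edgeR adjusted p = 1.59e-05) in virgin, 0.94 (SE 0.21, edgeR adjusted p = 0.00153) in pregnant and 1.46 (SE 0.24, edgeR adjusted p = 0.000117) in lactating mice.

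Basal Rnf43 was higher in lactating than in virgin mice, where basal Znrf3 was lower, and the luminal direction of Rnf43 at that comparison turned with the scaling. Its basal libraries held 46.4 and 40.3 CPM in virgin, 54.0 and 52.2 CPM in pregnant and 59.9 and 60.3 CPM in lactating mice. Its luminal libraries held 19.2 and 18.1 CPM in virgin, 17.7 and 15.5 CPM in pregnant and 34.4 and 39.6 CPM in lactating mice. The lactating groups were the highest of both cell types, with no overlap with the earlier stages. Luminal Rnf43 was higher in lactating than in pregnant mice by a log2 change of 1.15 (SE 0.12, edgeR adjusted p = 6.99e-06), and by 0.30 (edgeR adjusted p = 0.0755) under library size scaling. Luminal lactating cells exceeded virgin ones by 0.99 (SE 0.12, edgeR adjusted p = 1.02e-05), but the value turned to -0.37 (edgeR adjusted p = 0.0210) under library size scaling, so that this direction depends on the scaling. Basal Rnf43 was higher in lactating than in virgin mice by 0.47 (SE 0.11, edgeR adjusted p = 0.00368), and by 0.26 (edgeR adjusted p = 0.116) under library size scaling. The ratio of the ligases within a library needs no scaling between libraries: Rnf43 gave 64.0% and 66.7% of their summed RPKM in basal virgin, 73.0% and 80.4% in basal pregnant and 83.1% and 85.6% in basal lactating libraries. In luminal libraries its share was 71.0% and 73.9% in virgin mice, 65.5% and 66.8% in pregnant mice and 89.5% and 90.6% in lactating mice. The Rnf43 share thus rose in pregnancy and again in lactation in basal cells, and in lactation alone in luminal cells, described without a test. Basal cells held more Rnf43 than luminal cells by 1.22 (SE 0.11, edgeR adjusted p = 1.16e-06) in virgin, 1.67 (SE 0.12, edgeR adjusted p = 4.47e-08) in pregnant and 0.70 (SE 0.11, edgeR adjusted p = 9.48e-05) in lactating mice.

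Axin2 (Entrez 12006, chr11:108917828-108950783, plus strand) fell at a different step in each cell type. Basal libraries held 25.2 and 17.7 CPM in virgin, 5.57 and 4.82 CPM in pregnant and 3.14 and 5.10 CPM in lactating mice. Luminal libraries held 3.16 and 2.195 CPM in virgin, 2.46 and 2.66 CPM in pregnant and 0.382 and 0.227 CPM in lactating mice. The luminal lactating values rest on 5 and 3 counts, against 55 and 54 counts in luminal pregnant libraries. Basal virgin libraries stood alone, with pregnant and lactating ones overlapping, whereas luminal virgin and pregnant libraries overlapped and lactating ones stood apart. Basal Axin2 averaged 5.20 ± 0.53 CPM in pregnant and 21.4 ± 5.33 CPM in virgin mice (SD, n = 2 each), a log2 change of -2.04 (SE 0.25, edgeR adjusted p = 9.42e-05), and its further change in lactation was -0.34 (SE 0.27, edgeR adjusted p = 0.355). In luminal cells the pregnancy change was -0.06 (SE 0.29, edgeR adjusted p = 0.889), and the lactation change was -3.05 (SE 0.50, edgeR adjusted p = 0.000275). Both steps differed between the cell types, the pregnancy change by -1.98 (basal minus luminal, SE 0.38, edgeR adjusted p = 0.00195) and the lactation change by 2.71 (SE 0.59, edgeR adjusted p = 0.00316). Basal cells held more Axin2 than luminal cells by 3.004 (SE 0.26, edgeR adjusted p = 6.56e-07) in virgin, 1.02 (SE 0.28, edgeR adjusted p = 0.00586) in pregnant and 3.73 (SE 0.47, edgeR adjusted p = 9.05e-06) in lactating mice. An annotated neighbour, Gm11670, overlaps 3.8% of the Axin2 exons, and the labels do not say whether strand was used in counting.

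Procr (Entrez 19124, chr2:155751125-155755478, plus strand) declined with stage in basal cells. Basal libraries held 43.0 and 73.2 CPM in virgin, 25.8 and 39.4 CPM in pregnant and 14.4 and 11.7 CPM in lactating mice. Luminal libraries held 5.81 and 11.1 CPM in virgin, 4.39 and 5.97 CPM in pregnant and 5.04 and 4.17 CPM in lactating mice. The basal stages did not overlap but the virgin and pregnant pairs were each wide apart. Luminal pregnant libraries overlapped with both other stages, while luminal lactating ones lay below luminal virgin ones. Basal Procr was lower in pregnant than in virgin mice by a log2 change of -0.84 (SE 0.29, edgeR adjusted p = 0.0471), a call that was lost without basal virgin library 2 (-0.40, edgeR adjusted p = 0.377) and without basal pregnant library 1 (-0.56, edgeR adjusted p = 0.268). Leaving out any 1 of the 4 lactating libraries also took the adjusted p just past 0.05, between 0.0572 and 0.0632, as did RLE scaling (0.0530) and the subtraction of luminal carry-over (0.0524). Basal Procr fell further in lactation by -1.32 (SE 0.31, edgeR adjusted p = 0.00656), with -0.98 (edgeR adjusted p = 0.0533) without basal pregnant library 2 and -1.18 (edgeR adjusted p = 0.0705) without basal lactating library 2. Over both steps the basal change was -2.15 (SE 0.31, edgeR adjusted p = 0.000143). The luminal change from virgin to lactating mice was -0.88 (SE 0.38, edgeR adjusted p = 0.0606), and it passed the threshold by DESeq2 (-0.80, adjusted p = 0.0394), with library size scaling (-2.24, edgeR adjusted p = 2.97e-05), with no low-count filter (-0.90, edgeR adjusted p = 0.0131) and without luminal virgin library 1 (-1.27, edgeR adjusted p = 0.00956), basal virgin library 1 (-0.88, edgeR adjusted p = 0.0382) or basal virgin library 2 (-0.88, edgeR adjusted p = 0.0377). Basal cells held more Procr than luminal cells by 2.77 (SE 0.32, edgeR adjusted p = 7.86e-06) in virgin, 2.65 (SE 0.34, edgeR adjusted p = 1.43e-05) in pregnant and 1.503 (SE 0.37, edgeR adjusted p = 0.00271) in lactating mice.

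Procr is also a gene of endothelial cells, and endothelial markers moved beside it. The 13 markers, among them Pecam1, Cdh5 and Kdr, summed to 369 and 605 CPM in basal virgin, 146 and 189.6 CPM in basal pregnant and 150.4 and 182 CPM in basal lactating libraries. In luminal libraries they summed to 136 and 172 CPM in virgin, 42.6 and 33.1 CPM in pregnant and 68.0 and 69.9 CPM in lactating mice, and none of the 13 was at 0 in any group. In basal cells 11 of 13 were lower in pregnant than in virgin mice (14.4% of all genes). In virgin mice 13 of 13 were higher in basal than in luminal cells (31.5% of all genes). At the step from pregnancy to lactation, where Procr fell, 0 of the 13 were lower (1 by edgeR at an unadjusted p under 0.05) and 2 were higher in basal cells. Of all genes 17.4% were lower and 15.7% higher in basal cells at this step. Of 9 leukocyte markers tested, 6 were lower and 1 was higher at this step, and Itgam was at 0 in both basal lactating libraries. Their level was low, and all 11 listed markers together summed to 16.2 and 19.1 CPM in basal pregnant and 10.8 and 9.47 CPM in basal lactating libraries. Of 11 fibroblast markers 4 were lower and 1 higher, with sums of 520.7 and 454 CPM in basal lactating and 688 and 879 CPM in basal pregnant libraries. The part of these cells in the lactation change of Procr was not tested. The basal virgin library with the higher Procr level (73.2 against 43.0 CPM) was also the one with the higher endothelial sum. The basal pregnant and luminal virgin pairs showed the same order. In the basal lactating, luminal pregnant and luminal lactating pairs, the library with more Procr had the lower endothelial sum. The part of endothelial RNA in the pregnancy change and in the basal and luminal difference of Procr was not tested.

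**Figure D3:**
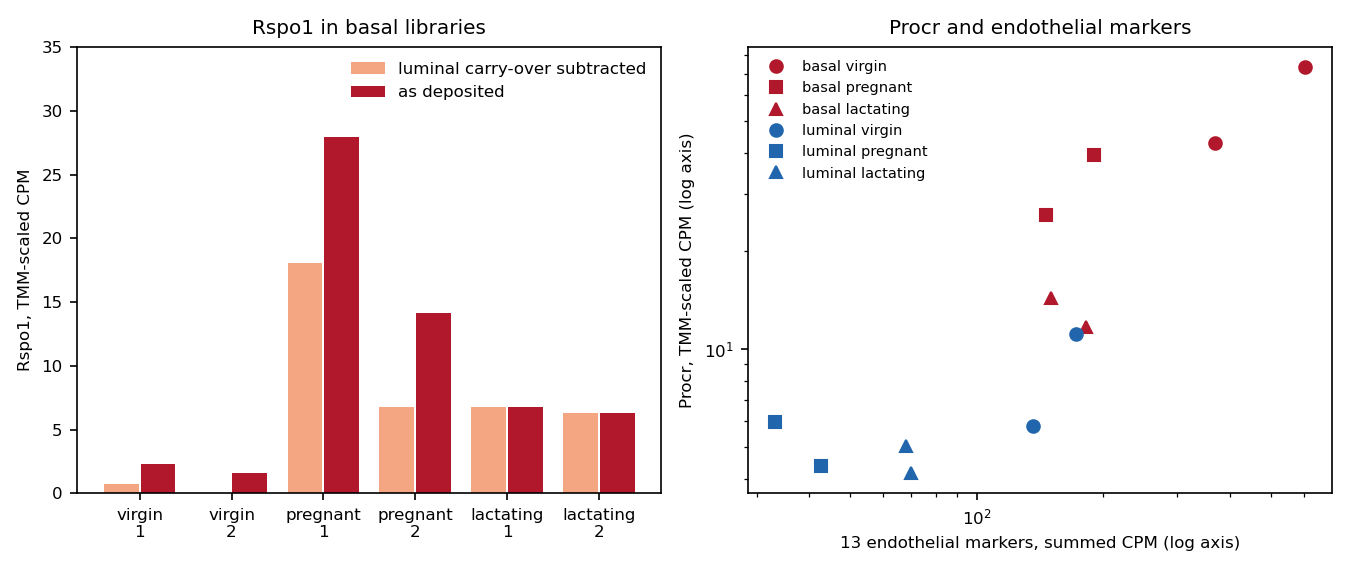
Left, Rspo1 in the 6 basal libraries as TMM-scaled CPM, with the luminal carry-over subtracted (light bars) and as deposited (dark bars); right, Procr against the summed level of 13 endothelial markers in all 12 libraries, both as TMM-scaled CPM on log axes. Basal pregnant Rspo1 stays at 18.0 and 6.80 CPM after subtraction at the shares of the alveolar markers. The basal virgin libraries lie at the upper right, with endothelial sums of 369 and 605 CPM.

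Most members were higher in basal cells at each stage. In virgin mice 7 of the 8 tested genes were higher in basal than in luminal cells and 1, Rspo1, was lower, where 31.5% of all 15969 genes tested were called higher and 31.2% lower. The median log2 difference of the 8 was 2.26, beside -0.01 over all genes. In pregnant mice the count was again 7 higher and 1 lower (35.9% and 33.9% of all genes), with a median of 1.35 beside 0.02. In lactating mice 6 were higher and 0 lower (39.2% and 35.4%), with a median of 1.48 beside 0.08, and edgeR at an unadjusted p under 0.05 and DESeq2 also gave 0 lower. Averaged over the stages, 7 were higher and 1 lower (41.5% and 40.1%), with a median of 1.84 beside 0.02.

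The 6 comparisons between stages each called between 3 and 7 of the 8 genes. In basal cells 1 gene rose and 3 fell in pregnancy against virgin (15.6% and 14.4% of all genes), and the median was -0.28 beside 0.00. Under RLE scaling 2 rose and 2 fell at this step. Against pregnancy, 0 rose and 3 fell in basal lactating cells (15.7% and 17.4%), with a median of -0.50 beside 0.01, and 1 rose by edgeR at an unadjusted p under 0.05 and 0 by DESeq2. Against virgin, 2 rose and 4 fell in basal lactating cells (23.7% and 23.7%), with a median of -0.69 beside 0.00, or 1 rose and 5 fell under library size scaling. In luminal cells 2 rose and 1 fell in pregnancy against virgin (21.8% and 24.1%), with a median of 0.07 beside -0.04, or 2 rose and 3 fell under library size scaling. The lactating luminal cells had 2 genes higher and 4 lower than the pregnant ones (23.7% and 24.6%), with a median of -0.62 beside 0.00, or 0 higher and 5 lower under library size scaling. Relative to virgin they had 2 higher and 5 lower (26.7% and 33.5%), with a median of -1.79 beside -0.15, or 1 higher and 7 lower under library size scaling. Lactating cells are set against pregnant and virgin cells with shared libraries, so these counts are not independent of each other.

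**Figure D4:**
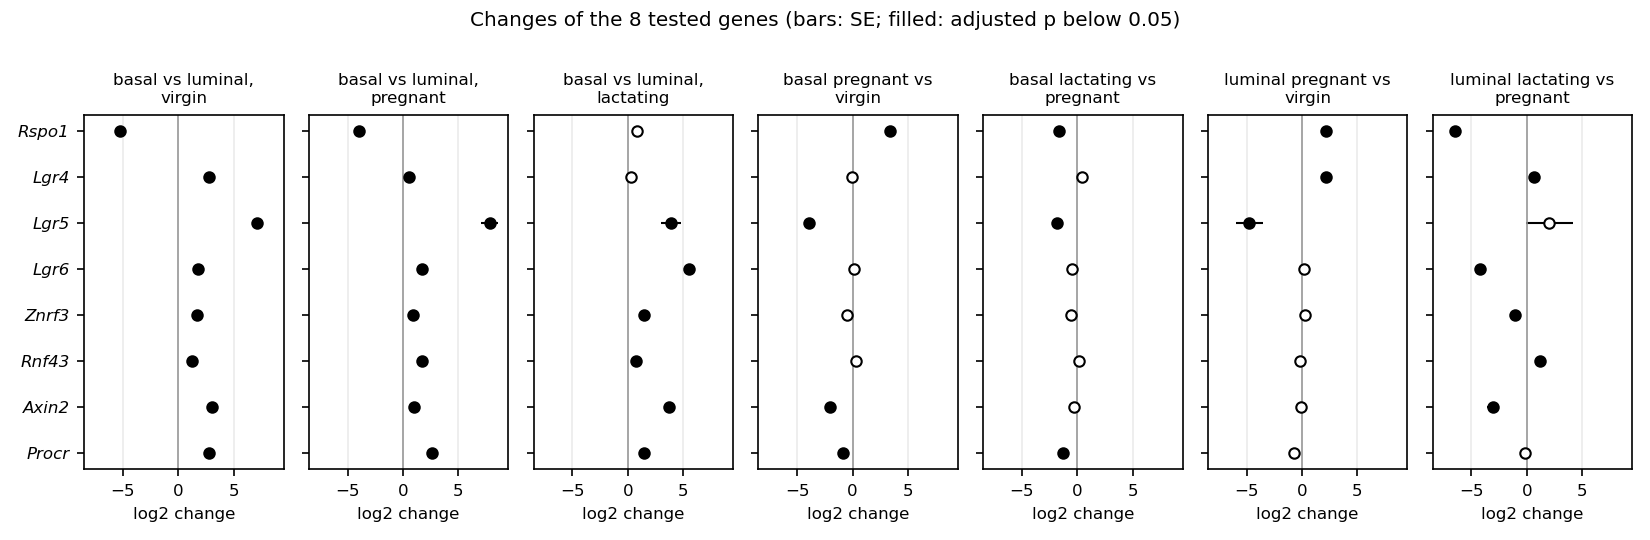
Log2 change of each tested gene (rows) in 7 comparisons (panels), the first group of each title over the second, with bars for the SE; filled points have an edgeR adjusted p below 0.05. Rspo1 is left of 0 in basal against luminal virgin and pregnant cells, where the other 7 genes are right of 0, and the points of the stage comparisons scatter on both sides.

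The test of the difference between the basal and the luminal change called 4 of 8 genes for pregnancy (2 higher and 2 lower in basal, where 16.7% and 14.0% of all genes were called) and 4 of 8 for lactation (3 higher and 1 lower, where 18.0% and 18.3% were, or 5 higher and 0 lower under library size scaling). Rspo1 rose more in basal than in luminal cells in pregnancy, by 1.28 (SE 0.44, edgeR adjusted p = 0.0427), a call lost in 9 of the 12 fits that left out a library, most of all without basal pregnant library 1 (0.70, edgeR adjusted p = 0.179). In lactation the basal change of Rspo1 was above the luminal one by 4.83 (SE 0.47, edgeR adjusted p = 1.27e-05). Rnf43 differed by 0.46 (SE 0.16, edgeR adjusted p = 0.0464) in pregnancy, a call lost in 10 of those 12 fits with values of 0.36 to 0.50, and by -0.98 (SE 0.16, edgeR adjusted p = 0.000517) in lactation, or -0.17 (edgeR adjusted p = 0.483) under library size scaling. The pregnancy change of Znrf3 differed by -0.76 (SE 0.30, edgeR adjusted p = 0.0712), and by -0.77 (edgeR adjusted p = 0.00515) with the replicate number of each stage as a block. With that block the lactation change also differed for Lgr5, by -3.90 (edgeR adjusted p = 0.0327, against 0.206 without it), and for Procr, by -1.14 (edgeR adjusted p = 0.000558, against 0.0981 without it). The luminal arm of the Lgr5 value rests on 1 count in pregnant and 3 counts in lactating mice.

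Lists of the wider pathway were compared in the same way. Some lists share genes, so that their counts are not independent of each other. Dkk1, Notum and Apcdd1 are listed as antagonists and as target genes, and Tcf7 as a target gene and a nuclear partner. Sox9 is listed as a target gene and among the genes reported in mammary stem cells. Counts averaged over the stages stand beside 41.5% of all genes called higher and 40.1% called lower in basal than in luminal cells. Of 17 WNT receptors and co-receptors tested, 16 were higher and 1 was lower in basal than in luminal cells averaged over the stages, with a median of 2.50 beside 0.02 over all genes. The largest differences were those of Ror2, a receptor of WNT5A (log2 difference 6.51, SE 0.26, edgeR adjusted p = 2.62e-10), Fzd7 (4.25, SE 0.13, edgeR adjusted p = 5.48e-12) and Reck, a cofactor for WNT7 (3.64, SE 0.11, edgeR adjusted p = 6.55e-12). All 13 WNT antagonists tested, secreted or at the membrane, were higher in basal cells, with a median of 1.90. They were led by Wif1 (9.34, SE 0.12, edgeR adjusted p = 2.83e-14), Sostdc1 (7.35, SE 0.19, edgeR adjusted p = 1.54e-12) and Dkk3 (4.48, SE 0.14, edgeR adjusted p = 6.49e-12). In lactating mice, however, 5 antagonists were higher and 2 lower (39.2% and 35.4% of all genes), or 9 higher and 0 lower under library size scaling. WNT ligands divided into 7 higher and 3 lower of 10, with Wnt6 (8.46, SE 0.16, edgeR adjusted p = 1.14e-13), Wnt10a (7.77, SE 0.22, edgeR adjusted p = 2.95e-12) and Wnt11 (5.92, SE 0.15, edgeR adjusted p = 1.28e-12) at the basal end. Of 14 WNT target and feedback genes other than Axin2, 11 were higher and 2 lower, led by Nkd1 (7.34, SE 0.14, edgeR adjusted p = 1.09e-13) and Nkd2 (5.46, SE 0.25, edgeR adjusted p = 2.71e-10), which are inhibitors induced by WNT, and by Cd44, an adhesion receptor (4.37, SE 0.13, edgeR adjusted p = 3.59e-12). The destruction complex and dishevelled genes split 9 higher and 5 lower of 15 (41.5% and 40.1% of all genes), with a median of 0.28. Under library size scaling 11 were higher and 2 lower. Nuclear partners of beta-catenin split 6 higher and 2 lower of 12 (again beside 41.5% and 40.1%), or 10 higher and 1 lower under library size scaling. Pygo1 (4.86, SE 0.26, edgeR adjusted p = 1.28e-09) and Tcf7 (4.27, SE 0.13, edgeR adjusted p = 7.06e-12) were in front.

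Some target genes moved as Axin2 did and some did not. In basal cells 4 of the 14 target and feedback genes were higher and 3 lower in pregnant than in virgin mice, or 1 higher and 4 lower under library size scaling, beside 15.6% higher and 14.4% lower of all genes. Nkd2 stood at 3.73 and 3.67 CPM in basal pregnant and 32.1 and 34.3 CPM in basal virgin libraries, a log2 change of -3.16 (SE 0.24, edgeR adjusted p = 2.74e-06). Tcf7, a TCF factor that is itself a WNT target, stood at 40.7 and 30.6 CPM in basal pregnant and 63.6 and 63.2 CPM in basal virgin libraries (log2 change -0.83, SE 0.14, edgeR adjusted p = 0.00110). The basal pregnant and virgin libraries did not overlap for either gene. Between lactating and pregnant mice 0 of the 14 were higher and 5 lower in basal cells (15.7% and 17.4% of all genes), and 0 were higher and 6 lower in luminal cells (23.7% and 24.6%). By edgeR at an unadjusted p under 0.05, 1 was higher in basal and 0 in luminal cells, and DESeq2 called 0 higher in both. Luminal Tcf7 had 2 and 1 counts in lactating and 132 and 134 counts in pregnant mice. Tnfrsf19, a target gene also called Troy, was highest in pregnancy among the luminal stages, as Rspo1 was, and held 3.05 and 3.21 CPM in virgin, 23.6 and 16.6 CPM in pregnant and 3.36 and 2.803 CPM in lactating luminal libraries, with a log2 change of 2.68 (SE 0.38, edgeR adjusted p = 9.26e-05) in pregnancy and -2.70 (SE 0.41, edgeR adjusted p = 0.000146) in lactation. In basal cells Tnfrsf19 stood at 3.14 and 0.783 CPM in pregnant and 5.25 and 6.81 CPM in virgin libraries, with a log2 change of -1.60 (SE 0.40, edgeR adjusted p = 0.0100). The basal change was -2.93 (edgeR adjusted p = 0.000223) without basal pregnant library 1, -0.94 (edgeR adjusted p = 0.0385) without basal pregnant library 2 and -1.40 (edgeR adjusted p = 0.0521) without basal virgin library 2.

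WNT receptors fell in luminal cells in pregnancy, with 2 of 17 higher and 12 lower, where 21.8% of all genes were higher and 24.1% lower, and a median of -0.77 beside -0.04 over all genes. Fzd10 stood at 0.358 and 0.0986 CPM in luminal pregnant and 12.7 and 20.9 CPM in luminal virgin libraries, from 8 and 2 counts against 354 and 619. In basal cells 1 of 17 was higher and 7 lower in pregnancy (15.6% and 14.4% of all genes), and Fzd10 again changed most (log2 change -1.95, SE 0.26, edgeR adjusted p = 0.000170). Luminal WNT ligands fell in 5 of 10 cases in pregnancy, beside 24.1% of all genes, with 0 higher (0 also by edgeR at an unadjusted p under 0.05 and by DESeq2), led by Wnt5a (-4.22, SE 0.22, edgeR adjusted p = 2.90e-08) and Wnt7b (-3.08, SE 0.28, edgeR adjusted p = 2.51e-06). Basal ligands split 2 higher and 4 lower of 10, again beside 15.6% and 14.4%, with Wnt9a lower by -2.86 (SE 0.34, edgeR adjusted p = 8.86e-05) and Wnt4 higher by 2.01 (SE 0.22, edgeR adjusted p = 3.84e-05). Wnt4, a ligand known to act downstream of progesterone in luminal cells, moved in opposite directions in the cell types. Luminal libraries held 121 and 98.4 CPM in virgin, 63.5 and 44.2 CPM in pregnant and 26.8 and 20 CPM in lactating mice, while basal libraries held 5.46 and 5.15, 22.4 and 20.2, and 46.3 and 35.04 CPM at the same stages.

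Around Procr, the protein C genes split 1 higher and 3 lower of 6 in basal pregnant against virgin cells, where 15.6% of all genes were higher and 14.4% lower. F2rl1, a protease receptor, fell by -3.16 (SE 0.16, edgeR adjusted p = 1.56e-07), Thbd, the thrombin receptor thrombomodulin, fell by -1.83 (SE 0.32, edgeR adjusted p = 0.00106), and F3, tissue factor, rose by 1.24 (SE 0.29, edgeR adjusted p = 0.00606), or by 0.86 (edgeR adjusted p = 0.0547) without basal virgin library 1. Other genes reported in mammary stem cells split 3 higher and 4 lower of 8 at the same step, against the same shares of all genes, or 1 higher and 4 lower under library size scaling. Among them Tspan8, a tetraspanin reported on quiescent mammary stem cells, fell by -2.47 (SE 0.25, edgeR adjusted p = 2.56e-05), and Bcl11b fell by -1.51 (SE 0.25, edgeR adjusted p = 0.000768). Snai2, a transcription factor of basal cells, rose by 1.401 (SE 0.15, edgeR adjusted p = 3.31e-05). The others that fell were Cdh5, which is also 1 of the 13 endothelial markers (-1.11, SE 0.25, edgeR adjusted p = 0.00523), and Nrp1 (-1.38, SE 0.38, edgeR adjusted p = 0.0162), a receptor that endothelial cells also carry. Both calls were lost without basal virgin library 2, the one with the higher endothelial sum (-0.69 for Cdh5, edgeR adjusted p = 0.0592, and -0.88 for Nrp1, edgeR adjusted p = 0.141), and that of Nrp1 also without basal pregnant library 1 (-1.22, edgeR adjusted p = 0.0991). In lactating against pregnant basal cells the list split 1 higher and 4 lower of 8, where 15.7% of all genes were higher and 17.4% lower.

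Across the 12 libraries, which share cell type, lane and stage, Znrf3 and Axin2 had the most similar profiles among the members (Pearson r of log2 CPM 0.94), followed by Lgr5 and Procr (0.93). Lgr6 correlated with Axin2 at 0.90 and with Znrf3 at 0.88. Rspo1 and Rnf43 were the most opposed pair (-0.77). These values describe 12 libraries in 6 groups and carry no test. Among all genes tested, the profile most like Rspo1 was that of Usp6nl (0.97), followed by Plscr2 and Nubpl. Lgr4 was most like Ttc7b (0.98), Tnik and Ext2, Lgr5 most like Sstr3 (0.99), Sap18 and Stac, and Lgr6 most like Api5 (0.98), Rbm12 and Lbh. Znrf3 was most like Rhbdl3 (0.99), Slc7a6os and Gtpbp1, and Rnf43 most like Fam114a1 (0.99), Gab3 and Ackr3. Axin2 was most like Atxn7l3 (0.98), Zbtb2 and Katna1, and Procr most like Dgkb (0.98), P2rx1 and Trh.

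In the order of group levels, many neighbours did not differ, which here means that their step missed the threshold in the fit of all libraries. For Rspo1 the order was luminal pregnant, luminal virgin, basal pregnant, basal lactating, luminal lactating and basal virgin, and the first 3 steps passed the threshold while the last 2 did not (edgeR adjusted p = 0.0717 and 0.0850). For Lgr4 the top 4 groups, basal lactating, luminal lactating, basal virgin and basal pregnant, had no neighbours that differed, and luminal pregnant and luminal virgin followed in separate steps. For Lgr5 the order was basal virgin, basal pregnant, basal lactating, luminal virgin, luminal lactating and luminal pregnant, and all steps but the last passed. For Lgr6 the 3 basal groups came first without differing, then luminal pregnant and virgin without differing from each other, and luminal lactating last and apart. Znrf3 ran from basal virgin over basal pregnant, basal lactating, luminal pregnant and luminal virgin to luminal lactating, and of these steps the last alone passed (edgeR adjusted p = 0.0118). Rnf43 ran from basal lactating over basal pregnant, basal virgin, luminal lactating and luminal virgin to luminal pregnant, with 1 step, between the luminal lactating and the luminal virgin group, past the threshold. Axin2 was highest in basal virgin cells and lowest in luminal lactating cells, each separate, with the 4 other groups in between having no neighbours that differed. Procr had separate basal virgin, pregnant and lactating levels, and from basal lactating down through luminal virgin, pregnant and lactating cells no neighbours differed.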

How the data were processed

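RNA of 12 libraries was counted per gene. The deposited table holds 1 raw count per Entrez identifier and library and, beside it, a gene length that was deposited by the authors and used here for RPKM alone. The submitters' processing notes name CASAVA 1.8.2, Subread 1.4.4, featureCounts, GRCm38 and mm10 without a role. Strand, multi-mapping and annotation settings are not given in the sources that were used. The single-library files differed from the table in 0 counts. Symbols and coordinates came from RefSeq tables of GRCm38.p6, and 25275 of 27179 identifiers matched. The identifiers with no symbol stayed in the tests.

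Genes were kept by filterByExpr (minimum count 10, by group), which left 15969. Counts were scaled by TMM factors and tested with the quasi-likelihood pipeline of edgeR 4.0.16 (R 4.3.3), fitting the 6 group means jointly in all 12 libraries. Benjamini-Hochberg adjustment ran over the 15969 genes within each of 12 comparisons, and a gene was called below 0.05. The procedure was tested on simulated data. SEs are the absolute log2 change over the square root of F, and levels are TMM-scaled CPM or RPKM with the SD of 2 libraries. Depth was 20.02 M to 24.72 M counts per library.

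The 9 genes, the pathway and marker lists and the naming rule (all members, at most 3 called genes with the largest change per list and comparison, and the 3 genes with the highest Pearson correlation of log2 CPM, prior count 2) were chosen with earlier results of these data known. Tcf7 and Tnfrsf19 in luminal cells, Tnfrsf19 in basal cells, Wnt4, Fzd10, Cdh5 and Nrp1 were described after their values were seen.

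Libraries carry the numbers 1 and 2 in every group. Deviations of same-numbered basal and luminal libraries from their group means were correlated across 7012 genes (r = 0.24 for virgin, 0.40 for pregnant, 0.20 for lactating). All exceeded 0.1, but so did luminal pregnant with basal virgin (0.18) and basal virgin with basal pregnant (0.16), which are of different stages. The cut of 0.1 therefore cannot establish that a number pairs the cell types within a stage, and no label states it. A block by number within a stage was run as an alternative, and the main fit had no block. The other pairs of groups ran from -0.30 to 0.18, and the numbers were not taken to pair stages. Alternatives were RLE scaling, library size only, no or a stricter low-count filter (at least 1 CPM in 2 libraries), DESeq2 1.42.0, a replicate block, fits of 1 cell type, each library left out and, chosen after seeing the data, subtraction of luminal carry-over.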

Additional observations from a re-analysis of the deposited data

Results flagged for a closer look

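For 5 of the tested genes the basal and the luminal change with stage differed in a test of the difference itself (edgeR, basal minus luminal, adjusted over all genes tested), which marked them for a closer look. In pregnancy the difference was 1.28 on the log2 scale for Rspo1 (adjusted p = 0.0427), -2.21 for Lgr4 (adjusted p = 2.42e-05), 0.459 for Rnf43 (adjusted p = 0.0464) and -1.98 for Axin2 (adjusted p = 0.00195). In lactation it was 4.83 for Rspo1 (adjusted p = 1.27e-05), 3.81 for Lgr6 (adjusted p = 5.97e-06), -0.975 for Rnf43 (adjusted p = 0.000517) and 2.71 for Axin2 (adjusted p = 0.00316). Each difference rests on 8 libraries, 2 in each of 4 groups. Of 20 alternative fits, 9 lost the pregnancy call of Rspo1 and 11 lost that of Rnf43. Under library size scaling the lactation difference of Rnf43 was -0.17 (edgeR adjusted p = 0.483).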

How the results depend on the processing

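Of 1896 recomputed values of members, 1772 kept their direction and their side of the threshold, 43 lost a call and 61 gained one. Another 17 turned their sign with no call on either side, 5 of them with library size scaling. A sign turned with a call on at least 1 side in 3 cases, all with library size scaling: Lgr4 in luminal lactating against pregnant cells (-0.195), Rnf43 in luminal lactating against virgin cells (-0.373) and the basal minus luminal lactation change of Lgr4 (0.565). The members called numbered 5 instead of 3 for luminal pregnant against virgin cells with library size scaling, and for basal lactating against pregnant cells 6 instead of 3 without a low-count filter and 5 with basal libraries alone. With each library left out in turn, that basal count ran from 2 to 5, and the count for the difference in pregnancy change ran from 2 to 4. The other counts of members stayed within 1.5 times under the alternatives run, the replicate block included (5 for the pregnancy change difference, 6 for the lactation change difference within stages). With the replicate number as a block across stages, which the numbers were not taken to pair, basal Znrf3 passed at both steps (-0.51 in pregnancy, edgeR adjusted p = 0.0133, and -0.53 in lactation, edgeR adjusted p = 0.0124), as did luminal Procr in lactating against virgin mice (-0.83, edgeR adjusted p = 0.0309). The causes were not tested. Luminal Lgr5 and all Rspo3 values are limited by counts near 0, and luminal lactating Axin2 rests on 5 and 3 counts.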
